A study of Mus musculus with 4 samples.

Results

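The gene loci examined here were those of 10 genes of megakaryocytes and platelets (Itga2b, Gp1ba, Gp9, Gp6, Pf4, Ppbp, Vwf, Selp, Treml1 and Myl9) out of 21938 protein-coding genes of the mouse annotation. The genes were chosen by name, but with earlier results of these data known. Every peak whose summit lay in the gene body or within 50 kb of it was taken from 4 lists of ChIP-seq peaks on mm10. A summit is the base of a peak with the highest signal. The coding start of a gene here is the most upstream transcription start of its protein-coding transcripts, and not the start codon. Such a window often holds other genes as well, so that a summit was counted as next to a gene only where the nearest annotated transcription start was that of this gene.

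The lists came from floating hematopoietic progenitors (HP) that had been derived in culture from mouse embryonic stem cells (ESC). The methods of the authors give 2 days for this differentiation, while a figure legend of theirs names a different day for the RUNX1 cells. All cells carried a Tet-on dominant-negative FOS (dnFOS), a peptide that blocks JUN-related proteins from binding DNA and that is made only when doxycycline (DOX) is added. RUNX1 ChIP was deposited as 1 library labelled -DOX and 1 library labelled +DOX, and ChIP labelled as the repressive histone mark H3K27me3 as 1 library titled untreated and 1 titled DOX. The cells are a culture model at an early stage, and no expression was measured in the files used here, so that the share of cells on the way to this lineage is not known here.

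The run names inside both RUNX1 lists give the opposite treatment from their labels, and every direction below therefore holds only if the labels are right and turns around if the libraries are exchanged. For H3K27me3 the title and the treatment given in the labels contradict each other, and the antibody named in the protocol is against RUNX1, so that these libraries are told apart only by their titles and belong to no condition. Each condition has 1 library and the read depth is not known. With nothing to measure the error of a library, all differences between libraries are given as descriptions and none was tested. On the autosomes, X and Y, the RUNX1 lists held 18389 peaks (-DOX) and 21831 peaks (+DOX). The H3K27me3 lists held 6356 (titled untreated) and 7233 (titled DOX) there.

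RUNX1 is the transcription factor that establishes the blood program in the embryo and is required again for the maturation of megakaryocytes, where it acts beside GATA1, FLI1 and other ETS factors. Megakaryocytes fill their granules with adhesive proteins and chemokines, place glycoprotein receptors on their surface and release platelets by an actomyosin-driven process. Itga2b, which encodes the alpha IIb integrin chain CD41, is also among the earliest surface markers of blood cells that arise from endothelium.

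The DNA under the RUNX1 sites that the results turn on is given first. Peaks are described by their fold enrichment over the local background in the same library and by the -log10 of the q-value. The percentile of a peak is the percent of all peaks in its own list with a lower -log10 q, since the raw values depend on the depth of each library. A region is the 200 bp at the summit in the list with the higher percentile, and was cut where an annotated exon began. The sequences are from mm10, are written in the direction of the named gene, and show in capitals the matches to RUNX, GATA and ETS consensus letters.

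The first pair holds the promoter sites of genes for surface receptors, Itga2b (chr11:102470123-102470297, minus strand) and Gp1ba (chr11:70638944-70639121, plus strand). Both show GATA matches and no RUNX match, and Gp1ba also shows an ETS match.
Itga2b promoter: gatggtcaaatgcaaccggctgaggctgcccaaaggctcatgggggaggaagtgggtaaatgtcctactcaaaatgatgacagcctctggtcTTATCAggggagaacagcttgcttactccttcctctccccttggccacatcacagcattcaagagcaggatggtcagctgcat
Gp1ba promoter: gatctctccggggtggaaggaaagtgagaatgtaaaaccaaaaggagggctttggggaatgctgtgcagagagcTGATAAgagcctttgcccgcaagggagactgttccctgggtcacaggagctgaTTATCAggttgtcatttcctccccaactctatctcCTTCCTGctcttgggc

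The next set holds sites away from the promoter of the named gene, where RUNX letters were found together with GATA letters. They lie in an intron of Selp (chr1:164135475-164135674), upstream of Gp9 (chr6:87775979-87776142), upstream of both Pf4 and Ppbp (chr5:90742155-90742354) and downstream of Myl9 (chr2:156783508-156783707), all on the plus strand.
Selp intron: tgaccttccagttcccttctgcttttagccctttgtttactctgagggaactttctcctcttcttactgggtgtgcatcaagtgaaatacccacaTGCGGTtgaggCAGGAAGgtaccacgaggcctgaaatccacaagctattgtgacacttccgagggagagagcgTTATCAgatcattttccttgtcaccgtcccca
Gp9 upstream: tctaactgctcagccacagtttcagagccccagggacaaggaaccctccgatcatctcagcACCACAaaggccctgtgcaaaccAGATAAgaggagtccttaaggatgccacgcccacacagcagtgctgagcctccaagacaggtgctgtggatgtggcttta
Pf4 and Ppbp upstream: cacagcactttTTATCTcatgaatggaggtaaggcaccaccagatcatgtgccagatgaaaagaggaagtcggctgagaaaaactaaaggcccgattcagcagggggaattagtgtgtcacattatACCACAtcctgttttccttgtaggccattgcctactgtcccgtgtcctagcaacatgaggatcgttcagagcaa
Myl9 downstream: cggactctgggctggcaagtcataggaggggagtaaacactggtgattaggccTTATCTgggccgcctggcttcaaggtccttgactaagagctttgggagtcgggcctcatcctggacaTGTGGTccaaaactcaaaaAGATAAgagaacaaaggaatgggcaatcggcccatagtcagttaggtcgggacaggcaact

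Of the site at the start of Pf4, which lies in an annotated exon, only the 30 bases around the summit (chr5:90772536-90772565, plus strand) are given, to show the GATA match beside the summit.
Pf4 start: cctcaaggtagaactTTATCTttgggtcca

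All 10 genes had a RUNX1 summit in their window in both libraries. Of all protein-coding genes, 73.5% (-DOX) and 75.7% (+DOX) had such a summit, so that a summit within 50 kb is common and does not by itself mark these loci. The windows held 26 summits in the -DOX list and 35 in the +DOX list. Per gene this was a median of 2 and of 2.5 summits, against a median of 2 over all protein-coding genes in each library.

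Counting only summits whose nearest start was that of the gene, 4 of the 10 genes had a RUNX1 summit in the library labelled -DOX (Itga2b, Gp1ba, Vwf and Selp) beside 44.3% of all protein-coding genes. In the library labelled +DOX it was 6 genes (the same 4, Pf4 and Myl9) beside 48.2%. Gp9, Gp6, Ppbp and Treml1 had none in either. A summit within 1500 bp of the start it was next to was found for 3 genes in each RUNX1 library (Itga2b, Gp1ba and Vwf with -DOX, Itga2b, Gp1ba and Pf4 with +DOX), where 37.8% (-DOX) and 41.0% (+DOX) of all protein-coding genes had one. The Vwf summit lay in an intron, 1089 bp from the start of another Vwf transcript and 18388 bp downstream of the coding start. It stood at the 6.26th percentile. The members thus stood near the background in how often RUNX1 lay next to them.

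They differed from one another in the rank of these peaks. A summit at or above the 90th percentile was next to Itga2b, Gp1ba and Selp in the -DOX library and next to Itga2b and Selp in the +DOX library, beside 5.53% and 6.49% of all protein-coding genes. The rest of their nearest summits ranged from the 6.26th to the 54.8th percentile (-DOX) and from the 16.3rd to the 78.3rd (+DOX). The threshold of the 90th percentile was chosen with the values known, and 3 or 2 of 10 genes is a small count.

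**Figure D1:**
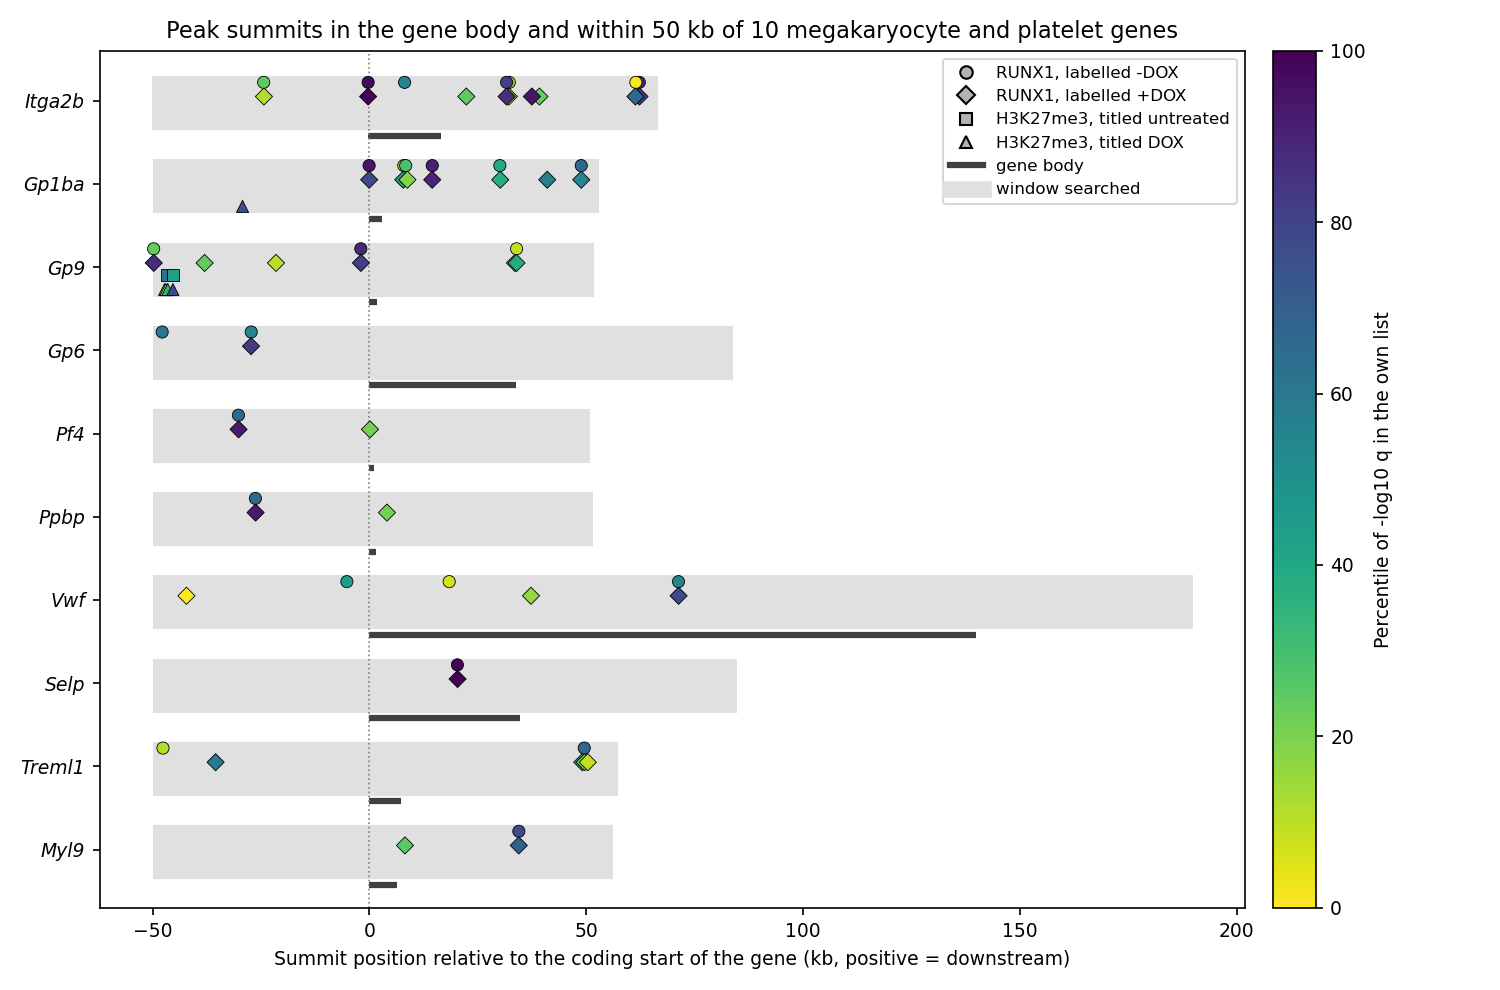
Peak summits of the 4 libraries at each gene, placed by their distance from the coding start (kb, positive values downstream) and coloured by the percentile of -log10 q in their own list, with the gene body as a dark bar and the searched window in grey. RUNX1 summits above the 90th percentile lie at the start of Itga2b, in the body of Selp, at the start of Gp1ba and in Pfn1 of its window in the -DOX library, and upstream of Pf4 and Ppbp and in Grn of the Itga2b window in the +DOX library. Gp6 and Treml1 have no RUNX1 summit within 25 kb of the coding start, and H3K27me3 symbols appear only upstream of Gp1ba and Gp9.

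Among the receptor genes of the 10, Itga2b had the promoter site of highest percentile. Its RUNX1 summits in the 2 libraries lay 2 bp apart, 312 and 314 bp upstream of the coding start (chr11, positions 102470195 and 102470197), in intergenic sequence and 75 bp upstream of the nearest annotated transcript start of the gene. The fold enrichment was 12.05 (-DOX) and 12.7 (+DOX), with a -log10 q of 67.3 and 82.0. This placed the site at the 97.8th and the 98.7th percentile, and the percentiles differed by only 0.885 points between the libraries. A GATA match (TTATCA) lay 6 bp from the summit, with a MEIS match 20 bp and a PU.1 match 52 bp away.

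A second RUNX1 summit next to Itga2b, in a coding exon 8100 bp downstream of the coding start, was present only in the -DOX list at the 54.8th percentile with a fold of 4.81. The wider window of Itga2b was the most crowded of the 10, with 6 sites in both lists, 1 only in the -DOX list and 3 only in the +DOX list, and 8 of these 10 sites were next to other genes (Slc25a39, Grn, Fam171a2 and the non-coding Gm11628).

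Gp1ba encodes the chain of the GPIb-IX-V complex that binds von Willebrand factor. Its RUNX1 summits lay 79 bp (-DOX) and 69 bp (+DOX) upstream of the coding start at position 70639122 of chr11, between a pair of GATA matches 22 and 30 bp from the summit used and with an ETS match 66 bp away. The fold was 10.5 (-DOX) and 6.61 (+DOX), and the -log10 q was 42.5 and 17.4. The site thus stood at the 94.6th percentile in one library and the 78.1st in the other, a difference of -16.4 points (+DOX minus -DOX). Across the 14177 merged sites in both lists, this difference had a median of 1.83 and ran from -31.6 to 41.8 between the 5th and the 95th percentile, and the shift at Gp1ba lay inside that range. In such bulk samples, fewer cells with RUNX1 at a site and less RUNX1 per cell cannot be told apart.

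Gp9 encodes the smallest chain of the same complex. The nearest RUNX1 summits lay 1994 bp (-DOX) and 1971 bp (+DOX) upstream of its coding start, 65 bp from the start of the long non-coding RNA Gm43904, and Gp9 was the nearest protein-coding gene. The fold was 8.97 and 7.73 and the percentile 88.5 and 81.7. This region holds a RUNX match 36 bp and a GATA match 12 bp from the summit. Gp9 therefore had a site of high rank in both libraries that the count by the nearest start of any transcript gives to its non-coding neighbour.

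Gp6, the collagen receptor of platelets, had no RUNX1 summit in its body or near its start. Its closest summits were 27.3 kb upstream in both libraries, in an annotated untranslated region of Rdh13, and the nearest start was that of a pseudogene (Atp6v0c-ps1). There the fold was 5.26 (-DOX) and 8.41 (+DOX), at the 54.9th and the 83.5th percentile. A RUNX match (ACCACA, the reverse complement of TGTGGT) lay 64 bp from the summit.

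Treml1 encodes TLT-1, a receptor stored in alpha granules that reaches the surface on activation. Its closest RUNX1 summits were 47.6 kb away (-DOX) and 35.5 kb away (+DOX). In the -DOX library no other of the 10 genes was as far from a summit, while in the +DOX library the coding start of Vwf was farther, at 37.2 kb. All 5 sites in its window lay next to B430306N03Rik, Nfya or Oard1. The median distance of the closest summit to a coding start was 11.0 kb (-DOX) and 6.55 kb (+DOX) over 21853 protein-coding genes with an annotated coding start, and 23.3 kb and 6.11 kb over the 10 genes.

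Among the 10 genes, Selp, a gene for a granule protein, had the site of highest percentile in both libraries. It encodes P-selectin, the adhesion receptor of the alpha granule membrane, which endothelial cells store as well. It had 1 RUNX1 site in each library, in an intron 20.3 kb downstream of the coding start (summits at 164135541 and 164135574 of chr1). The fold was 18.6 (-DOX) and 19.1 (+DOX) with a -log10 q of 101 and 145, at the 99.2nd and the 99.7th percentile. The RUNX match TGCGGT lay 2 bp from the summit, an ETS match 10 bp and a GATA match 72 bp away.

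The start nearest to this site was that of another transcript of Selp, 5744 bp away. By protein-coding transcripts alone it was that of F5, coagulation factor V, at a distance of 16264 bp, so that the site cannot be given to one of these genes by position.

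Vwf encodes von Willebrand factor, the adhesive protein of alpha granules and of the storage bodies of endothelial cells, and spans chr6:125546774-125686679. It had 4 RUNX1 sites next to it, more than any other of the 10, and all of lower rank. The intronic site 71277 bp downstream of the coding start was in both lists, with a fold of 5.76 (-DOX) and 8.09 (+DOX) at the 54.6th and the 78.3rd percentile. The sequence at this site is soft-masked as repeat over 64% of its length, and the part of repeats in the peak was not tested. A site 5210 bp upstream of the coding start (44.7th percentile) and an intronic site (6.26th percentile) were present only in the -DOX list, and another intronic site (16.3rd percentile) only in the +DOX list.

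Pf4 and Ppbp encode chemokines of the alpha granule, platelet factor 4 and pro-platelet basic protein, and lie side by side on chromosome 5, so that their windows held the same 2 sites. The one in both lists lay 30.2 kb upstream of Pf4 and 26.3 kb upstream of Ppbp, next to the pseudogene Gm43090 and with Cxcl5, another chemokine gene, as the nearest protein-coding start. The fold was 6.75 (-DOX) and 13.1 (+DOX), and the -log10 q was 12.1 and 37.0. Its percentile of 66.6 and 93.3 differed by 26.6 points, and a RUNX match lay 30 bp and a PU.1 match 34 bp from the summit.

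The other site lay 115 bp downstream of the Pf4 coding start, in the annotated untranslated region, and only in the +DOX list. It was a weak peak, with a fold of 4.46 and a -log10 q of 4.88 at the 20.8th percentile, and its summit lay 4 bp from a GATA match. No summit was next to Ppbp in either library.

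Myl9 encodes a regulatory light chain of myosin II that acts in platelet release and is abundant in smooth muscle. Its only RUNX1 summit lay 8187 bp downstream of the coding start in the library labelled +DOX, with a fold of 4.45 and a -log10 q of 5.43 at the 25.5th percentile. A RUNX match lay 24 bp from this summit and GATA matches 42 and 44 bp from it. A stronger site farther downstream, at the 77.4th (-DOX) and the 69.9th percentile (+DOX), was next to the non-coding Gm14231 and had Tgif2 as the nearest protein-coding start.

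By the highest RUNX1 percentile in the window, the order in the library labelled -DOX was Selp (99.2), Itga2b (97.8), Gp1ba (94.6), Gp9 (88.5), Myl9 (77.4), Treml1 (67.1), Pf4 and Ppbp (66.6), Gp6 (60.2) and Vwf (54.6). In the library labelled +DOX it was Selp (99.7), Itga2b (98.7), Pf4 and Ppbp (93.3), Gp1ba (89.8), Gp9 (87.2), Gp6 (83.5), Vwf (78.3), Myl9 (69.9) and Treml1 (59.1). By nearest start, the highest peak was next to the gene itself for Selp, Itga2b and Vwf, and for Gp1ba only in the -DOX library. The other values came from peaks next to other genes. In the +DOX library those of Gp1ba and Gp9 came from Pfn1 and Efcc1. There the Gp1ba promoter stood at 78.1 and the closest site upstream of Gp9 at 81.7. With 1 library per condition, no spread is at hand to say which neighbours in either order differ. The median over the 10 genes was 72.2 (-DOX) and 88.5 (+DOX), against 76.2 and 79.2 over the protein-coding genes with a summit in their window. The peak shared by Pf4 and Ppbp is counted for each of them, and peaks of neighbouring genes enter this median.

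Merging the summits of both libraries gave 39 RUNX1 sites in the windows. Of these, 21 (53.8%) were in both lists, 5 (12.8%) only in the -DOX list and 13 (33.3%) only in the +DOX list. Over all 24972 merged sites the shares were 56.8%, 14.8% and 28.4%, and with the libraries exchanged the last pair of numbers changes places in both. Of the sites in 1 list, 1 overlapped a peak of the other list without sharing its summit, at Nfya in the window of Treml1. Of the 39 sites, 10 were next to one of the 10 genes, of which 4 were in both lists, 3 only in the -DOX list and 3 only in the +DOX list. The 4 in both lists were the promoters of Itga2b and Gp1ba and the introns of Selp and Vwf.

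Among the 21 sites in both lists, 6 had a percentile at least 25 points higher in the +DOX library, where 15.1% of all such sites did, and 1 had one at least 25 points lower, beside 7.91%. The median difference of the 21 sites was -1.02 points, against 1.83 over all sites in both lists. Of the 6 higher sites, only that upstream of Pf4 and Ppbp and that upstream of Gp6 lay over 5 kb from every annotated start. The others were next to Efcc1, Rab43, Slc25a11 and Slc25a39, and the lower site was next to Nfya. None of the 7 was next to one of the 10 genes.

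**Figure D2:**
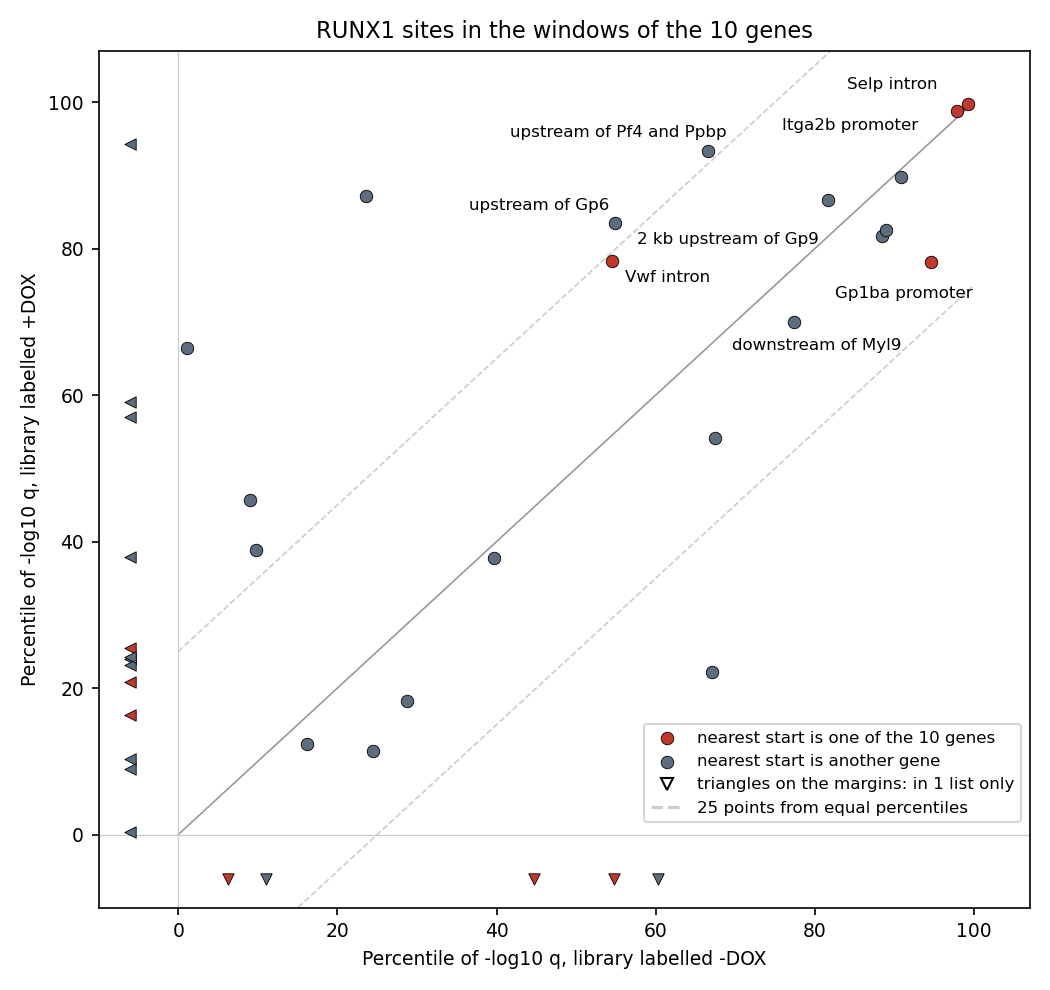
Percentile of -log10 q (horizontal axis for the library labelled -DOX, vertical axis for that labelled +DOX) for the 39 RUNX1 sites, with sites in 1 list as triangles on the margins and dashed lines 25 points from equal percentiles. The Selp and Itga2b sites sit in the upper right corner in both libraries, the site upstream of Pf4 and Ppbp (66.6 and 93.3) lies just above the upper dashed line, and the Gp1ba promoter (94.6 and 78.1) lies below the diagonal but inside the dashed lines.

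The position of the sites was that of RUNX1 sites at large. Of the 39 sites, 18 (46.2%) lay over 1500 bp from every annotated start, beside 46.1% of all merged sites.

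Consensus letters were searched on both strands of the 200 bp at each summit. RUNX (TGTGGT or TGCGGT) was found at 15 of the 39 sites (38.5%) and at 37.4% of all merged sites, where windows shifted by 2000 bp to either side held it in 16.7%. The GATA motif, searched with the letters AGATAA and with the letters TGATAA, was found at 12 of 39 (30.8%), beside 17.7% of all sites and 18.5% of the shifted windows. The ETS motif, searched with the letters CAGGAA and with the letters CCGGAA when A or G followed, was found at 7 of 39 (17.9%), beside 29.8% and 14.3%. AP-1 (TGACTCA or TGAGTCA), the motif of the factors that dnFOS blocks, was found at 1 site, in an intron of Gpatch8 in the window of Itga2b, beside 4.98% of all sites.

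Of the remaining motifs, MEIS (TGACAG) was found at 6 sites, C/EBP (TTGCNNAA) at 5, PU.1 (GAGGAAGT) at 3 and the CArG box of serum response factor at 1. Their shares over all sites were 13.5%, 6.46%, 4.67% and 0.58%. PU.1 letters can overlap an ETS site but share none of the 4 ETS words, and the other motifs were counted independently of each other.

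At the 10 sites next to the genes, GATA was found at 6, RUNX at 5, ETS and MEIS at 3, C/EBP at 2, PU.1 at 1, and AP-1 and CArG at none. The 95% Wilson interval of the 6 GATA sites runs from 31.3% to 83.2% and covers counting error only. The share of all sites over 1500 bp from a start was 29.4% for GATA, and that of sites within this distance 7.63%, so that the make-up of a small set by position moves this share. The promoter sites of Itga2b and Gp1ba hold GATA letters and no RUNX letters, while the exonic site of Itga2b holds RUNX letters and no GATA letters. Those at Selp, Myl9 and the Pf4 start hold both, and both are in the regions upstream of Gp9 and upstream of Pf4 and Ppbp.

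**Figure D3:**
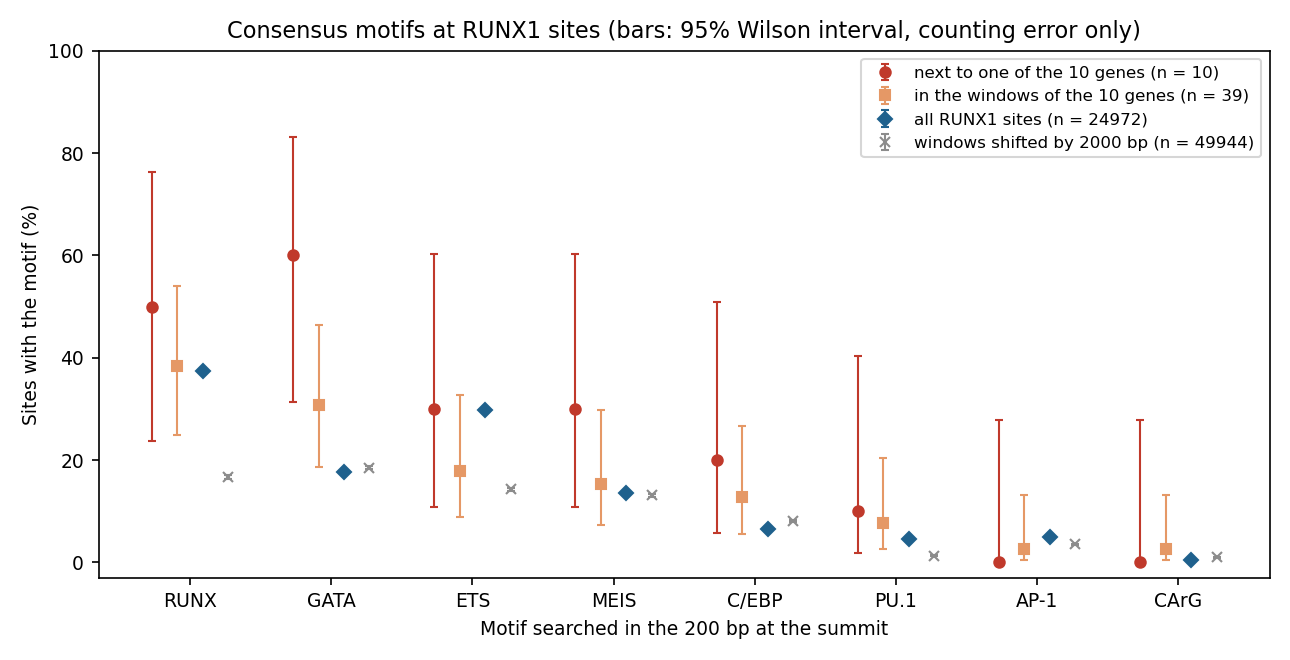
Share of sites with each of 8 consensus motifs in the 200 bp at the summit (percent) for the 10 sites next to the genes, the 39 sites in their windows, all 24972 RUNX1 sites and the shifted windows, with 95% Wilson intervals. The GATA share of the 10 sites (6 of 10) is the highest point, its interval is wide, and the RUNX share of the 39 sites (38.5%) is close to that of all sites (37.4%).

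RefSeq promoters, from 250 bases before to 50 bases after the start on the same assembly, were given for 9 of the 10 genes, without Vwf. ETS letters were in 4 of the 9 (Pf4, Gp1ba, Itga2b and Treml1), beside 30.9% of 32851 promoters, and MEIS letters in 4 (Selp, Gp9, Itga2b and Treml1), beside 19.2%. GATA letters were in 3 (Pf4, Gp6 and Gp1ba), beside 18.6%, and RUNX letters in 2 (Myl9 and Gp9), beside 22.4%. PU.1 and C/EBP letters were in the Pf4 promoter alone, beside 3.20% and 10.8%, and AP-1 letters in none, beside 5.20%. A CArG box was in 2, 161 bp upstream of the start of Myl9 and 87 bp upstream of that of Ppbp, beside 1.63% of promoters. Neither of these promoters had a RUNX1 summit within 1500 bp next to it, and such a match describes letters and not binding.

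H3K27me3 is laid down by Polycomb complexes on genes kept silent. Of the 10 genes, 1 (Gp9) had an H3K27me3 summit in its window in the library titled untreated, and 2 (Gp9 and Gp1ba) in the library titled DOX, beside 33.2% and 35.3% of all protein-coding genes. No H3K27me3 summit was next to one of the 10 genes in either library, beside 13.4% and 13.9% of protein-coding genes, and none had one within 1500 bp of its start, beside 11.0% and 10.3%.

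The H3K27me3 summits of the Gp9 window were 2 (titled untreated) and 4 (titled DOX). They lay at the start of Efcc1, between 45.2 and 47.2 kb upstream of Gp9, with percentiles of 43.9 and 64.4 in the former library and of 3.73 to 78.4 in the latter. The summit of the Gp1ba window lay in Mink1, 29.3 kb upstream of Gp1ba, at the 77.1st percentile and only in the library titled DOX. None of the 39 RUNX1 sites was under an H3K27me3 peak, beside 7.76% of all merged sites. These lists hold narrow peaks, with a median width of 180 and 122 bp, while the mark is known to spread over broad domains, and which condition and antibody they stand for is not settled by the labels.

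A wider list of 63 genes of megakaryocytes and platelets, which holds none of the 10, was used to set them in context. RUNX1 summits were next to 49 of these genes (77.8%) by the -DOX list, 51 (81.0%) by the +DOX list and 47 by both. The background over all protein-coding genes, given above, was 44.3% and 48.2%. Peaks at or above the 90th percentile were next to 13 (-DOX) and 18 (+DOX) of the 63, beside 5.53% and 6.49% of all protein-coding genes. All protein-coding genes include many that are silent in these cells, and the part of gene activity and of gene length in these shares was not tested.

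By role, the genes for the cytoskeleton and platelet release had such a summit in 13 of 13 cases in each library, and the transcription factors in 13 (-DOX) and 12 (+DOX) of 14. The genes for granule contents and secretion had one in 13 and 14 of 18, and the surface receptors in 12 and 14 of 20. Gp1bb and Itgb3 were listed both as receptors and under platelet release. Of the genes with a summit in neither library, 6 were receptors (Gp5, Itga2, Clec1b, P2ry12, Esam and Cd36) and 1 was the transcription factor gene Gfi1b. These names were picked after the values were seen. H3K27me3 summits were next to 8 (titled untreated) and 9 (titled DOX) of the 63, which is near the 13.4% and 13.9% of all protein-coding genes.

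Distances in the wider list are to the nearest annotated transcript start of the gene. Nfe2, which encodes the factor required for platelet release, had a summit 156 bp upstream at the 99.9th percentile in the -DOX library. In the +DOX library it had one 151 bp upstream at the 99.8th. F2r, which encodes the thrombin receptor PAR1, had one 81 bp upstream at the 99.5th percentile (-DOX) and 93 bp upstream at the 99.8th (+DOX). Runx1 itself had one 3504 bp (-DOX) and 3510 bp (+DOX) downstream of its nearest transcript start, at the 99.0th and the 98.2nd percentile. The first 5 genes also held Mkl1, the gene for a coactivator of serum response factor, at the 98.4th (-DOX) and the 97.4th percentile (+DOX). In the library labelled -DOX they were completed by Zfpm1, which encodes the GATA1 cofactor FOG1, at the 96.6th percentile, and in the library labelled +DOX by Myh9, non-muscle myosin IIA, at the 98.7th. The Selp and Itga2b sites thus ranked among those of these genes in both libraries.

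**Figure D4:**
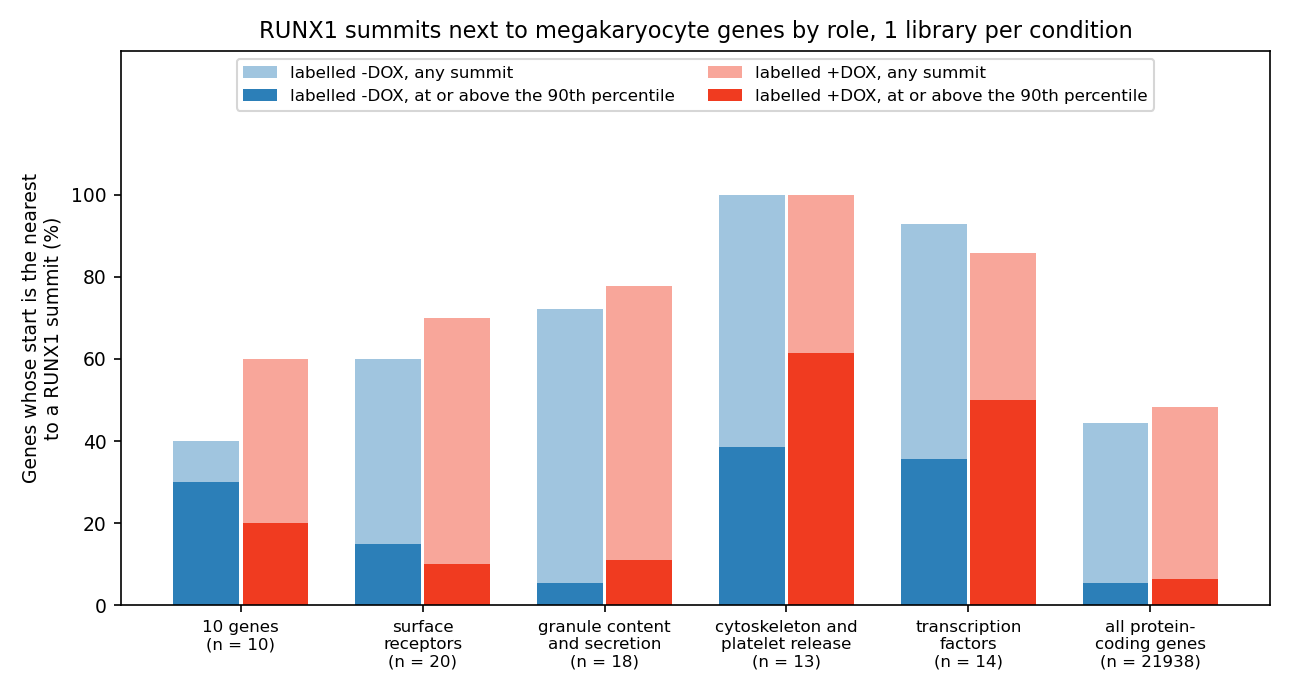
Percent of genes whose start is the nearest to a RUNX1 summit, for the 10 genes, the 4 roles of the wider list and all protein-coding genes, with 1 library per condition and no error bars, and with summits at or above the 90th percentile in the darker colour. The bars of the cytoskeleton genes reach 100% in both libraries, while the 10 genes (4 and 6 of 10) stand near the 44.3% and 48.2% of all protein-coding genes.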

How the data were processed

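RUNX1 and H3K27me3 ChIP-seq peak lists from DSG and formaldehyde crosslinked cells were used. For RUNX1 the authors used Trimmomatic 0.39 for trimming, Bowtie2 2.3.5 (2.2.9 in the submitters' processing notes) for alignment to mm10 and Picard 2.20.2 against duplicates. Each library then had its peaks called by MACS2 (2.1.1 in those notes) at a q-value of 0.05. An input control and the processing of H3K27me3 are not given in the sources used here. Each deposited peak has a ratio, its fold enrichment over the local background, and its p-value and q-value as -log10. No tag counts were used, so the depth and the precision of each value are unknown. The lists may precede the authors' repeat and blacklist filters.

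Ranks within a list were over peaks of the autosomes, X and Y, with ties counted as midway. Windows and starts came from GENCODE vM21. Intervals of 200 bp on either side of the summits were merged into sites. The wider list had 63 genes, of which Mkl1 was matched as Mrtfa through a RefSeq synonym, and the 5 of highest percentile per library were named. All 658 of 658 RefSeq promoters compared had the same letters as the genome. Scripts used Python 3.11.15, numpy 2.4.6, pysam 0.24.0 and matplotlib 3.10.9, and were tested on simulated data. The members, lists and thresholds were chosen with earlier results of these data known. Other window sizes, q-value minimums, summit extensions and motif windows were tried as alternatives.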

Additional observations from a re-analysis of the deposited data

How the results depend on the processing

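With summits in the gene body alone, the counts in the windows went from 26 to 4 (RUNX1, -DOX) and from 35 to 4 (+DOX), and H3K27me3 from 2 (titled untreated) and 5 (titled DOX) to 0 in both. Within 10 kb they were 10 and 11 for RUNX1 and 0 in both H3K27me3 lists, and within 100 kb 51 and 61 for RUNX1. At a -log10 q of at least 5, 13 sites were in both lists and 2 H3K27me3 summits remained in the list titled DOX. At 10 or more, the RUNX1 windows held 12 (-DOX) and 15 (+DOX) summits, of which 3 and 4 were next to one of the genes, and 9 sites were in both lists, 3 only in the -DOX list and 6 only in the +DOX list. With the RUNX1 labels exchanged, 13 sites were only in the -DOX list and 5 only in the +DOX list. In 400 bp at the summit, ETS letters were at 14 sites. At sites next to the genes, RUNX, GATA and ETS letters were at 5, 6 and 3. Under the other settings, 32 values for these counts stayed within 1.5 times. No library could be left out and no paired analysis was possible, since each condition has 1 library. Unknown depth limits every difference between libraries.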

Other observations

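The windows also held strong RUNX1 sites at neighbouring genes, which were picked here after their values were seen. In the window of Itga2b, an intronic site of Grn, the gene for progranulin, was only in the +DOX list with a fold of 9.83 and a -log10 q of 41.0, at the 94.3rd percentile, and it overlapped no peak of the -DOX list. It was the highest-ranked of the 18 sites that were in 1 list. Near Slc25a39, a mitochondrial carrier gene, 1 site stood at the 88.9th (-DOX) and the 82.5th percentile (+DOX), while a site next to it, 614 bp from the start, stood at the 1.05th and the 66.4th.

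In the window of Gp1ba, a site in an exon of Pfn1, which encodes the actin-binding protein profilin 1, stood at the 90.8th and the 89.8th percentile. A site upstream of Efcc1, in the window of Gp9, stood at the 23.6th (-DOX) and the 87.2nd percentile (+DOX), and the site of Nfya, which encodes a subunit of the CCAAT-binding factor NF-Y, at the 67.1st and the 22.2nd. Each is 1 value per library, and none of these differences was tested.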
